A study of Mesocricetus auratus with 8 samples.

Results

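Collagen genes were examined in cultured satellite cells (SCs), the muscle stem cells, of the Syrian hamster, a hibernator, before and after cold exposure. A gene was a member when its symbol in the deposited table had the form Col, a number, a, and a chain number, which gave 43 genes out of 17590 with values. This rule read gene symbols and no measured value. Of the 43, 11 encode fibrillar collagens, 8 basement membrane collagens, 9 fibril-associated collagens (FACIT), 4 transmembrane collagens, and 11 other types (VI, VII, VIII, X, XXVI and XXVIII). The low-count filter of the test passed 31 of the 43 genes, among 12506 genes of the whole table.

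All 8 libraries came from primary SCs of wild-type male hamsters aged 8 to 16 weeks, isolated from hindlimb muscle, preplated to remove fibroblasts, and grown on Matrigel in medium with 30% fetal bovine serum and basic fibroblast growth factor. Both groups spent 48 h at 37°C and then another 24 h at 37°C in growth medium with 100 mM HEPES. The 4 control libraries were titled as day 3 of growth at normal temperature, while another field of the labels gave 3, 4, 5 and 6 days at 37°C for control replicates 1, 2, 3 and 4. The 4 cold libraries came from cells kept a further 24 h at 4°C without a medium change. If the titles are right, no control library covers those added 24 h at 37°C, and the cold and the added time cannot be told apart. Each group was numbered 1 to 4, and the libraries of a group are described as biological replicates, but the sources used here do not say whether a number marks an animal, an isolation or a dish, so p-values measure the spread between these libraries. In bulk RNA, fewer cells of a type and less RNA per cell cannot be told apart either.

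Collagens are secreted or membrane-bound proteins whose chains wind into a triple helix. Fibrillar types I, III and V form the fibres of the muscle's connective tissue, and type IV forms the network of the basement membrane under which SCs lie. Type VI lies between the basement membrane and the fibres, and SCs are known to make part of the matrix of their own niche. FACIT collagens bind to the surface of fibrils, and transmembrane collagens sit in the plasma membrane and can be shed from it.

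The labelled cell type was checked against marker genes. All 8 myogenic markers were detected, and Myod1, which specifies myoblasts, was at 424 to 693 TPM (a level scaled for transcript length and for the size of each library). Its means were 614 ± 103 TPM in controls and 567 ± 98.0 TPM in cold libraries (n = 4 each, SD). Blocked by replicate number, edgeR called 5 of the 8 lower, Myod1, Cdh15, Itga7, Chrna1 and Myog, beside 4.07% of all genes. Without the block 0 of the 8 passed. Of 12 fibroblast and mesenchymal markers, none of them a collagen, 11 had values, of which Thy1 was highest, with means of 568 TPM in controls and 579 TPM in cold libraries, and Pi16 was at 0 in every library. The summed level of these markers was 1224 to 1622 TPM in controls and 1198 to 1538 TPM in cold libraries. In the edgeR test blocked by replicate number, 1 of the 10 fibroblast markers tested was called, beside 4.07% of all genes called lower. This was Fn1, the gene of fibronectin, which fell from 453 ± 32.3 TPM in controls to 422 ± 26.3 TPM after cold (n = 4 each, SD; adjusted p = 0.0295). Scx, a tendon transcription factor, fell in the same blocked test from 199 ± 9.90 TPM to 166 ± 21.7 TPM (n = 4 each, SD; edgeR adjusted p = 0.00248). Neither passed edgeR without the block, with adjusted p of 0.947 for Fn1 and 0.399 for Scx. The part of these changes in the collagen values was not tested. Pericyte and smooth muscle markers summed to 67.5 to 93.9 TPM in controls and 67.1 to 89.6 TPM in cold libraries, and immune markers, mostly Cd68, to 26.0 to 54.3 TPM and 26.5 to 55.7 TPM, with Ptprc, Adgre1 and Itgam at or under 3 counts in every library. Schwann cell markers summed to 1.69 to 2.87 TPM over all libraries. Endothelial markers summed to 2.53 to 4.24 TPM in controls and 2.62 to 4.14 TPM in cold libraries. Library depth was 16530747 to 18533801 expected counts.

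In these SCs most collagen mRNAs differed between control and 24 h at 4°C by less than the spread between libraries. The exceptions were low transcripts, Col25a1 and Col19a1, whose control and cold libraries did not overlap and which were both lower in the cold. Summed over the 43 genes, collagen transcripts made 1624 ± 199 TPM (SD, n = 4) in control and 1625 ± 190 TPM (SD, n = 4) in cold libraries, with an exact two-sided permutation p of 1. Each single library lay between 1439 and 1910 TPM, or 0.144% to 0.191% of all transcripts.

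A few genes carried most of this sum. Col5a2, Col1a2, Col3a1, Col1a1 and Col5a1, in order of mean TPM, made 57.2% to 66.3% of collagen TPM in every library, and the 15 genes with a mean of at least 10 TPM made 98.0% to 98.4%. Another 6 genes, Col4a5, Col7a1, Col8a2, Col11a1, Col16a1 and Col24a1, had means from 1 to under 10 TPM. The remaining 22 genes had means under 1 TPM. Both collagen genes that differed were among these 22.

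**Figure D1:**
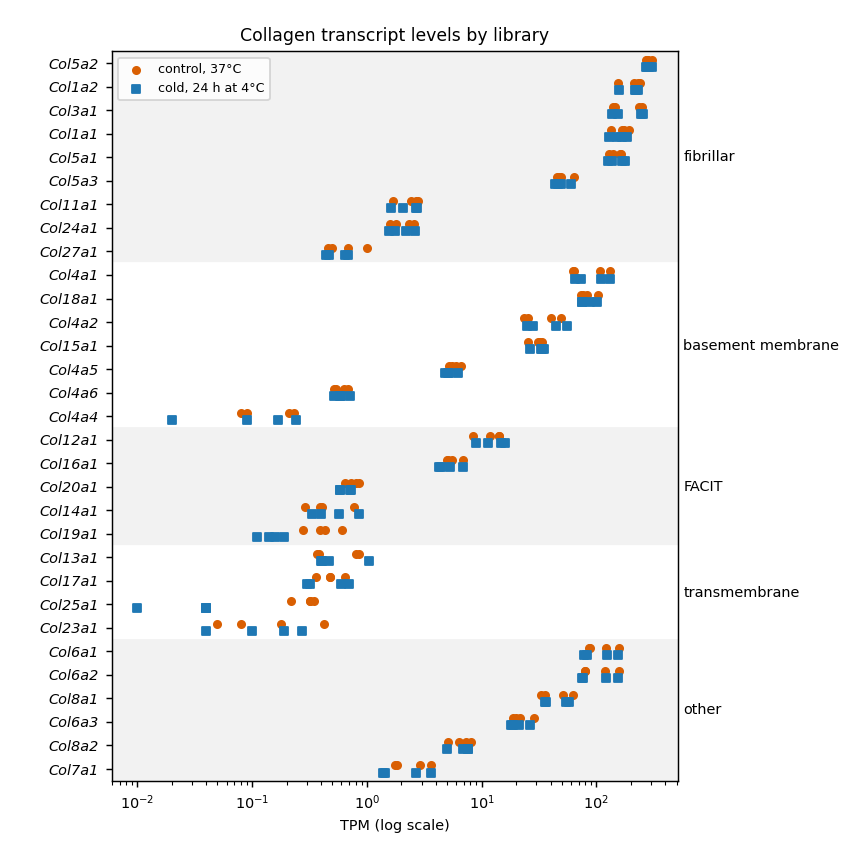
TPM (log axis) of the 31 collagen genes that passed the low-count filter, by class and in order of mean level, with 4 control libraries (circles) and 4 cold libraries (squares) each. The groups overlap for 29 genes and do not overlap for Col19a1 and Col25a1, for which every cold library lies below every control library.

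The edgeR quasi-likelihood test of cold against control, without the replicate number in the model, required a 2-fold difference (a log2 fold change of 1 in size) and an adjusted p (Benjamini-Hochberg over all 12506 genes) under 0.05. It called 1 of 31 collagen genes lower, Col25a1, beside 0.04% of all genes tested, and 0 collagen genes higher, beside 0.0% of all genes. Col25a1 passed the low-count filter through its control libraries alone, and with a mean of 10 counts required in each group the count of genes lower was 0. At an unadjusted p under 0.05, edgeR found 2 lower (6.45%), beside 4.13% of all genes, and 0 higher, beside 2.57%. DESeq2 also found 2 lower and 0 higher, beside 3.93% and 1.98% of all genes. Libraries with the same replicate number deviated together, so results of the same test blocked by replicate number are given wherever they change a call. In the edgeR fit with the block, 2 collagen genes were lower at an adjusted p under 0.05, Col19a1 and Col25a1, which is 6.45% of those tested beside 4.07% of all genes, and 0 were higher, beside 1.26% of all genes. With a mean of 10 counts required in each group, which Col25a1 does not reach, the blocked count was 1, so these shares are a description and not a result about the family. With the fold threshold added the same 2 genes were lower, beside 0.808% of all genes, and 0 were higher, beside 0.04%. In TPM, the groups did not overlap with cold lower for these 2 genes, beside 2.41% of all genes, and with cold higher for 0 genes, beside 2.27%.

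**Figure D2:**
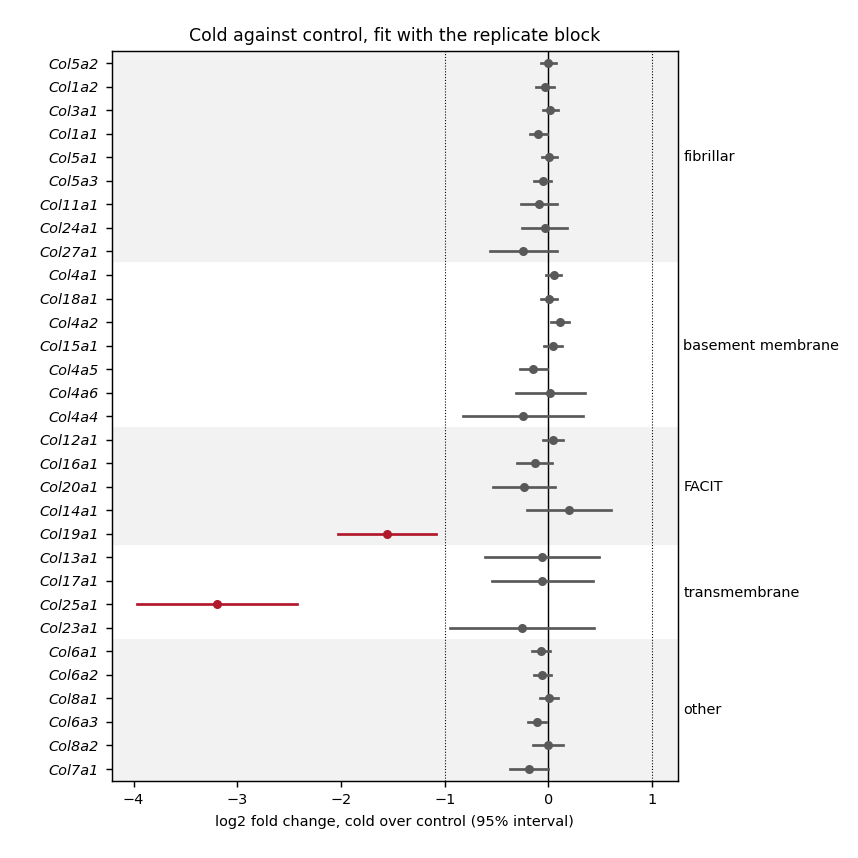
Log2 fold change of cold over control for the 31 collagen genes tested, from the edgeR fit with the replicate block, with 95% intervals; dotted lines mark a 2-fold difference. Col25a1 and Col19a1 lie apart from 0 with intervals that end beyond -1, and the other 29 intervals lie between -1 and 1.

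Col25a1 (gene 101824996) encodes the transmembrane collagen XXV, known in muscle for its part in motor innervation during development. Its level was 0.32, 0.35, 0.22 and 0.32 TPM in control replicates 1 to 4 and 0.01, 0.04, 0.04 and 0.04 TPM in cold replicates 1 to 4. Every cold library lay below every control library, and all 4 same-numbered pairs had less in the cold. The means were 0.303 ± 0.0568 TPM in controls and 0.0325 ± 0.015 TPM in cold libraries (n = 4 each, SD). The exact permutation p was 0.0286, the smallest that 4 against 4 libraries can give. Every gene whose groups do not overlap gets this value, so it adds nothing to the lack of overlap. Behind these levels were 25, 28, 16 and 25 counts in control and 1, 3, 3 and 3 counts in cold libraries, so no cold library exceeded the floor of 3 counts. Summed and scaled for depth, control over cold was 9.59-fold, with a 95% interval of 4.99 to 20.6 that covers counting error only. Col25a1 fell in the edgeR fit without the block, with a log2 fold change of -3.20 (SE 0.352, adjusted p = 0.0195), and in the fit with the block, with a log2 fold change of -3.19 (SE 0.367, adjusted p = 7.82e-06). Since Col25a1 passed the low-count filter through its control libraries alone, these p-values are a description. The call without the block was lost when any 1 library other than control replicate 3 was left out, with adjusted p from 0.0729 to 0.0999.

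Col19a1 (gene 101832946) encodes a FACIT collagen, type XIX, made by muscle cells in development and needed for normal esophageal muscle. It was at 0.61, 0.43, 0.28 and 0.39 TPM in control replicates 1 to 4 and at 0.11, 0.19, 0.14 and 0.16 TPM in cold replicates 1 to 4. The groups did not overlap, and the lowest control library, replicate 3, was above the highest cold library, replicate 2. The means were 0.428 ± 0.137 TPM and 0.150 ± 0.0337 TPM (n = 4 each, SD), with an exact permutation p of 0.0286, again fixed by the lack of overlap. The counts were 78, 57, 34 and 49 in control and 14, 24, 17 and 20 in cold libraries, a depth-scaled ratio of 2.96 with a 95% counting interval of 2.27 to 3.91. Without the block Col19a1 did not pass, with a log2 fold change of -1.57 (SE 0.299, adjusted p = 0.137 by edgeR), while DESeq2 without the block called it (adjusted p = 0.00172). With the replicate block it fell, with a log2 fold change of -1.56 (SE 0.227, adjusted p = 0.000136 by edgeR). In the RefSeq gene table Col19a1 stands next to Col9a1, another FACIT gene, which was at or under 3 counts in every library.

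Markers of late myogenic differentiation were lower in the cold in the same libraries. All 8 of them fell in the edgeR fit with the block, beside 4.07% of all genes, while without the block 0 of the 8 passed, with adjusted p from 0.0560 to 0.824. Acta1, Myh3, Tnnt1 and Myl1 of this list are among the genes that the paper reported as lower in these same libraries. The count is therefore a description and not an independent check. The median log2 fold change of the 8 was -1.51 without the block, and their summed level was 1587.5 to 3067.5 TPM in controls and 803 to 1386 TPM in cold libraries. Of the 8 markers of SCs and myoblasts, 5 fell with the block, Myog among them, which both lists hold, and 0 passed without it, with adjusted p of 0.275 or more. Whether these changes had a part in the values of Col25a1 and Col19a1 was not tested.

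The other 3 transmembrane collagens also had means under 1 TPM, and none passed the test. Col13a1, which is found at neuromuscular junctions, was at 0.37, 0.38, 0.81 and 0.85 TPM in control replicates 1 to 4 and at 0.47, 0.40, 0.41 and 1.04 TPM in cold replicates 1 to 4. The groups overlapped, and replicate 4 was highest in both. Col17a1, a hemidesmosome protein of epithelia, was at 0.64, 0.48, 0.36 and 0.48 TPM in controls and at 0.32, 0.70, 0.30 and 0.59 TPM in cold libraries. Pairs 1 and 3 were lower in the cold and pairs 2 and 4 higher. Col23a1 was at 0.08, 0.05, 0.18 and 0.42 TPM in controls and at 0.04, 0.10, 0.19 and 0.27 TPM in cold libraries, a spread within each group that exceeded the difference between them. In the edgeR fit with the block the log2 fold changes of Col13a1, Col17a1 and Col23a1 were -0.06, -0.06 and -0.26, with adjusted p of 0.938, 0.936 and 0.746 and 95% intervals that together reached from -0.95 to 0.49. The summed transmembrane level, Col25a1 included, was 1.58 ± 0.352 TPM in controls and 1.24 ± 0.497 TPM in cold libraries (n = 4 each, SD; exact permutation p = 0.286). It was lower in the cold in every same-numbered pair, which this unpaired test does not use.

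**Figure D3:**
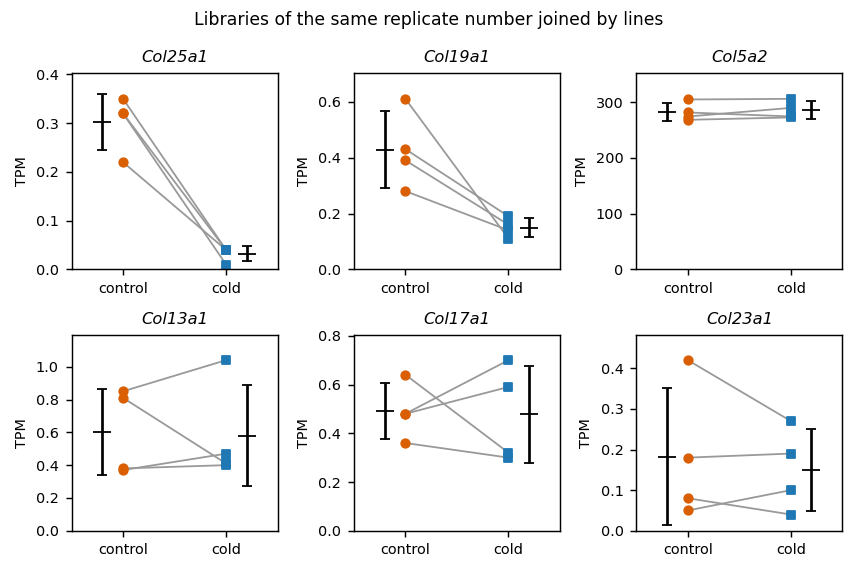
TPM in each library (linear axes from 0) of Col25a1, Col19a1, Col5a2, the most abundant collagen mRNA, and the other 3 transmembrane collagens, with lines joining control and cold libraries of the same replicate number and black bars showing the mean and SD of 4 libraries. All 4 lines fall for Col25a1 and Col19a1, while the lines of the transmembrane genes Col13a1, Col17a1 and Col23a1 run in both directions.

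Fibrillar collagens had the highest levels, and 0 of the 9 tested were called in either direction in either edgeR fit. Col5a2, a chain of type V that regulates fibril diameter, was at 274, 281, 268 and 305 TPM in control replicates 1 to 4 and at 290, 274, 273 and 306 TPM in cold replicates 1 to 4. The groups overlapped almost fully, and the 95% interval of its log2 fold change with the block was -0.07 to 0.07. Col1a2, a chain of type I, had means of 209.7 ± 38.1 TPM in controls and 207 ± 32.9 TPM in cold libraries, and Col3a1, the chain of type III, 191 ± 57.9 TPM and 197 ± 60.2 TPM (n = 4 each, SD). Col3a1 had the highest log2 fold change of the class, 0.03, and Col27a1, a minor fibrillar chain at 0.665 ± 0.251 TPM in controls and 0.560 ± 0.124 TPM in cold libraries, the lowest, -0.25, both with an adjusted p of 0.999 by edgeR without the block. Summed, the class made 1055 ± 92.0 TPM in controls and 1054 ± 85.5 TPM in cold libraries (n = 4 each, SD; exact permutation p = 1). Col2a1, the cartilage collagen, was at or under 3 counts in every library.

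Basement membrane collagens were likewise called in neither direction, 0 of 7 tested. Col4a1, which with Col4a2 forms the type IV network common to most basement membranes, was at 64.4, 62.3, 107 and 131 TPM in control replicates 1 to 4 and at 73.3, 65.0, 110 and 131 TPM in cold replicates 1 to 4. Its level varied more between replicate numbers than between control and cold. Col4a2 had means of 34.7 ± 12.4 TPM in controls and 38.0 ± 14.2 TPM in cold libraries (n = 4 each, SD), the highest log2 fold change of the class. Col4a1 and Col4a2 were each higher in the cold in 4 of 4 pairs, with log2 fold changes of 0.05 and 0.11 in the edgeR fit with the block and adjusted p of 0.472 and 0.140, so neither passed. Col18a1, whose cleaved end is endostatin, had means of 83.9 ± 13.8 TPM and 85.0 ± 12.5 TPM (n = 4 each, SD).

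The other type IV chains lay far below this pair. Col4a5 had means of 5.83 ± 0.581 TPM in controls and 5.35 ± 0.618 TPM in cold libraries (n = 4 each, SD) and was lower in 4 of 4 pairs, with a log2 fold change of -0.15 (adjusted p = 0.216 by edgeR with the block). Its head-to-head partner Col4a6 was at 0.52 to 0.71 TPM over the 8 libraries. Col4a3 and Col4a4, chains of the kidney glomerular basement membrane, were at 0.01 to 0.13 TPM and at 0.02 to 0.24 TPM, and Col4a3 did not pass the low-count filter. Col4a4 had the lowest log2 fold change of the class, -0.24 without the block (edgeR adjusted p = 0.999), with a 95% interval of -1.5 to 1.02 that reached past a 2-fold difference in either direction, while its interval with the block was -0.82 to 0.33.

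Of the 5 FACIT genes tested, Col19a1 was the only one called in the edgeR fit with the block, and 0 were called without it. Col12a1, which links fibrils to the surrounding matrix, was at 14.2, 14.1, 8.43 and 11.9 TPM in control replicates 1 to 4 and at 16.1, 14.7, 8.99 and 11.3 TPM in cold replicates 1 to 4. The lowest value of both groups was in replicate 3. Col16a1 had means of 5.62 ± 0.845 TPM in controls and 5.22 ± 1.22 TPM in cold libraries (n = 4 each, SD). Col20a1 was lower in 4 of 4 pairs after cold, at 0.755 ± 0.0911 TPM against 0.650 ± 0.0812 TPM (n = 4 each, SD), with a log2 fold change of -0.23 (adjusted p = 0.416 by edgeR with the block). Col14a1, which binds decorin on fibrils, had the highest log2 fold change of the class and of all collagen genes tested, 0.19 (edgeR adjusted p = 0.999 without the block), a value that ran from 0.53 without control replicate 4 to -0.098 without cold replicate 4.

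Among the other types, 0 of 6 tested genes were called in either edgeR fit. Col6a1 was at 85.7, 88.7, 123 and 157 TPM in control replicates 1 to 4 and at 83.4, 78.8, 124 and 156 TPM in cold replicates 1 to 4. Each cold library thus lay close to its same-numbered control library, while the numbers differed from each other. Col6a2, another chain of type VI, a collagen known to maintain SCs, had means of 109 ± 37.9 TPM and 107 ± 38.9 TPM (n = 4 each, SD). Col8a1, a network-forming collagen, had means of 45.8 ± 14.0 TPM in controls and 46.2 ± 11.8 TPM in cold libraries (n = 4 each, SD). Col7a1, the anchoring fibril collagen, had the lowest log2 fold change of these genes, -0.16 without the block, with TPM lower in 4 of 4 pairs after cold (pair 4 at 3.65 against 3.63, which on the log2 CPM scale was 0.03 higher in the cold), at 2.53 ± 0.905 TPM against 2.28 ± 1.09 TPM (n = 4 each, SD; adjusted p = 0.270 by edgeR with the block).

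For the 29 tested genes without a call, the intervals say how large a difference these data allow. In the edgeR fit with the block, all 29 intervals lay within a log2 fold change of 1 in either direction, 22 within 0.5 and 16 within 0.25. Without the block, 27 of the 29 lay within 1, the exceptions being Col4a4 and Col23a1, but only 14 within 0.5 and 1 within 0.25. For the 15 genes with a mean of at least 10 TPM, the block intervals together ran from -0.20 to 0.20, and without the block from -0.65 to 0.76. Before adjustment, the uncalled genes with p under 0.05 in the block fit of edgeR were Col1a1, Col4a5, Col6a3 and Col7a1, lower in the cold, and Col4a2, higher. With the called pair these make 6 of 31 lower (19.4%) and 1 higher (3.23%), beside 9.76% and 8.48% of all genes at the same threshold. In DESeq2 with the block, 4 were lower (12.9%, beside 5.87%), Col1a1, Col6a3, Col19a1 and Col25a1. Again 1 was higher, Col4a2 (3.23%, beside 3.49%). Over the 31 genes, 23 log2 fold changes without the block were negative and 8 positive, with a median of -0.05, beside 5894 negative and 6612 positive and a median of 0.01 over all genes tested. With the block the collagen split was 21 negative and 10 positive. By class the median was -0.04 for fibrillar, 0.01 for basement membrane, -0.12 for FACIT, -0.18 for transmembrane and -0.05 for other collagens. These values moved when 1 library was left out. The transmembrane median ran from -0.617 without cold replicate 4 to 0.023 without control replicate 4 and was 0.022 without cold replicate 1, and the FACIT median ran from -0.289 without cold replicate 4 to -0.041 without control replicate 4. Without control replicate 4 the median was 0.085 for other collagens and 0.0091 for all 31 genes, and the basement membrane median ran from -0.102 without cold replicate 4 to 0.073 without control replicate 3.

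The 12 genes that did not pass the filter were Col2a1, Col4a3, Col6a5, Col6a6, Col9a1, Col9a2, Col9a3, Col10a1, Col11a2, Col22a1, Col26a1 and Col28a1. Of these, 7 were at or under 3 counts in every library, and only Col4a3, Col6a5, Col9a2, Col11a2 and Col22a1 exceeded 3 counts in some library. With the filter relaxed to genes with at least 1 count, edgeR called 0 of the 12 without the block (lowest adjusted p = 0.926) and 0 with it (lowest adjusted p = 0.544). At an unadjusted p under 0.05 it found 1 of the 12 without the block, beside 5.38% of the 16648 genes fitted with that filter, and 0 with it, beside 14.7%. The 1 was Col9a3, with 1, 0, 1 and 2 counts in control and 0 in every cold library, all under the floor. All 3 chains of the cartilage collagen IX were among them, as was Col10a1, the collagen of hypertrophic cartilage.

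Collagen levels followed the replicate number. The variance of log2 CPM, the count scaled to library size, was divided, gene by gene, into a part between replicate numbers, a part between control and cold and a remainder, where the numbers hold more degrees of freedom than the condition. Over the 31 collagen genes the median part between numbers was 90.3%, beside 64.8% over all genes tested, and the median part between control and cold was 1.45%, beside 7.29%. The part between numbers was the larger in 29 of the 31, as it was in 10633 of all 12506 genes tested, and in Col25a1 and Col19a1 the condition held 94.7% and 79.7%. Col4a2 had means over both conditions of 26.6, 24.2, 42.4 and 52.1 TPM at numbers 1 to 4, Col3a1 of 149, 138, 239 and 251 TPM, and Col12a1 of 15.2, 14.4, 8.71 and 11.6 TPM. These examples differ in direction. In 12 of the 31 genes (38.7%, beside 23.5% of all genes tested) every library of numbers 3 and 4 lay above every library of numbers 1 and 2. In 3 genes (9.68%, beside 9.09%) every library of numbers 3 and 4 lay below. Of the 31 genes, 19 had their highest mean at number 4 (61.3%, beside 30.1% of all genes tested) and 1 at number 3 (3.23%, beside 34.3%). Another 6 had it at number 2 (19.4%, beside 16.6%) and 5 at number 1 (16.1%, beside 19.0%). Col5a2 moved little, from 270.4 TPM at number 3 to 305 TPM at number 4.

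**Figure D4:**
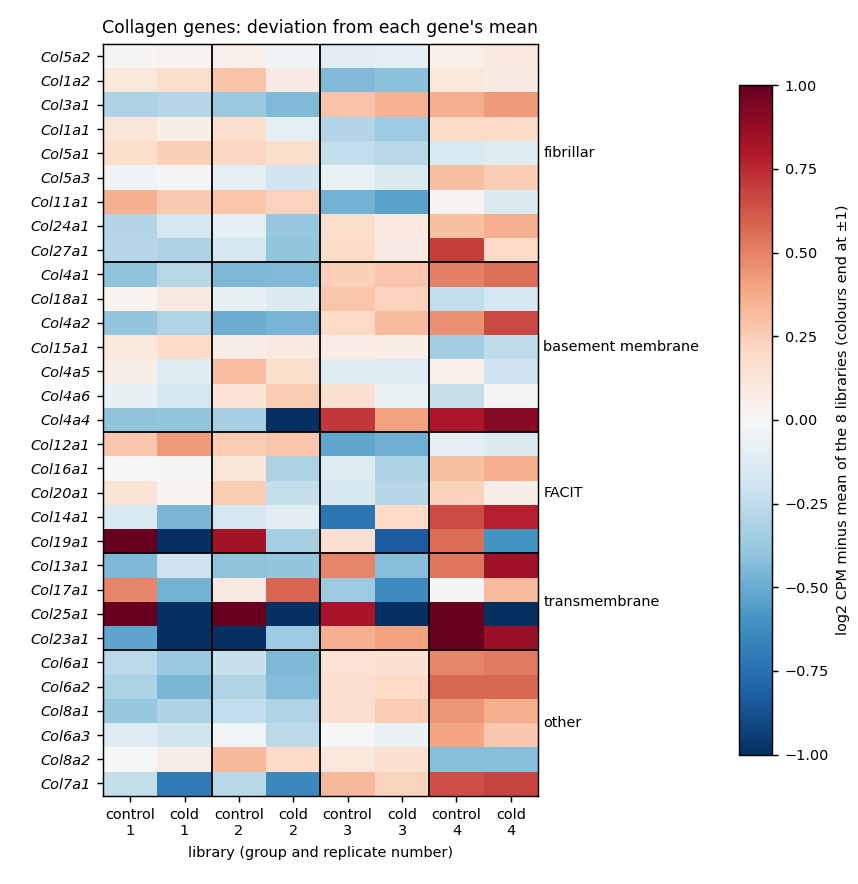
Deviation of log2 CPM (counts scaled to library size) from each gene's mean over the 8 libraries, with collagen genes in rows by class and control and cold libraries of the same replicate number side by side. Neighbouring columns of 1 number have like colours for most genes, while Col19a1 and Col25a1 alternate between control (high) and cold (low).

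The summed level of mesenchymal markers also varied with the numbers, though not all of its members did so alike. The summed level of the 11 fibroblast and mesenchymal markers was 1226, 1224, 1434 and 1622 TPM in control replicates 1 to 4 and 1258, 1198, 1427 and 1538 TPM in cold replicates 1 to 4. Thy1, at 480 to 662 TPM, and Fn1, at 386 to 472 TPM, made most of this sum, so it is no measure of the share of fibroblasts. Dcn, a fibril-binding proteoglycan in that list, was at 128, 115, 201 and 229 TPM in controls and at 132, 116, 200 and 211 TPM in cold libraries. Fn1 did not share this order, at 469, 472, 405 and 467 TPM in controls and 449, 432, 386 and 422 TPM in cold libraries. The late differentiation markers summed to 3067.5, 3032.5, 1587.5 and 1698 TPM in control replicates 1 to 4. In cold replicates 1 to 4 they summed to 1202, 1386, 922 and 803 TPM, all below every control sum. Their part in the collagen levels was not tested.

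The ratio between chains was examined within each library. These ratios were chosen after the values were seen, and 9 were compared between control and cold by an exact two-sided permutation test, with the lowest adjusted p at 0.868. This test does not pair libraries by replicate number, so it cannot show a small shift shared by all pairs. Col1a1 over Col1a2, which assemble together, was 0.691 to 0.865 in TPM over the 8 libraries, with an exact p of 0.514. Col4a1 over Col4a2 was 2.38 to 2.66, and Col6a1 over Col6a2 was 0.988 to 1.11, with exact permutation p of 0.171 and 0.771. Col3a1 over Col1a1, chains of different collagens, ranged from 0.797 to 1.90 and was higher in the cold in every same-numbered pair. Col5a3 over Col5a1 ranged from 0.262 to 0.463 and was lower in the cold in every pair. The other ratios moved in both directions, and no paired test of ratios was run. Of the low type IV pairs, Col4a3 over Col4a4 ranged from 0.125 to 0.619 on few counts and Col4a5 over Col4a6 from 7.71 to 11.5.

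Genes that process, fold and crosslink collagen chains were examined as a list. Of 36 listed maturation genes 33 were tested, and 0 were called in either direction in either edgeR fit. Before adjustment, p was under 0.05 in the block fit of edgeR for 2 genes lower (6.06%) and 5 higher (15.2%) in the cold, beside 9.76% and 8.48% of all genes, and in DESeq2 with the block for 0 and 0, beside 5.87% and 3.49%. Serpinh1, the collagen chaperone HSP47, had means of 1125 ± 138 TPM in controls and 1105 ± 175 TPM in cold libraries, Sparc, a collagen-binding matricellular protein, 807 ± 51.8 TPM and 819 ± 38.5 TPM, and Ppib, a prolyl isomerase, 657 ± 41.4 TPM and 659 ± 41.5 TPM (n = 4 each, SD). The median log2 fold change of the list was 0.02.

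Of 13 listed collagen receptors 10 were tested, and 1, Adgrg1, fell in the edgeR fit with the block, which is 10.0% of those tested beside 4.07% of all genes, and 0 were called without the block. Before adjustment, p was under 0.05 in the block fit for 3 of the 10, Ddr1, Adgrg1 and Cspg4, all lower (30.0% beside 9.76% of all genes), and for 0 higher, beside 8.48%. Adgrg1, also called GPR56, is an adhesion receptor for collagen III that is expressed in early myogenic differentiation. It was at 50.6, 48.4, 21.4 and 27.1 TPM in control replicates 1 to 4 and at 25.1, 26.5, 14.0 and 15 TPM in cold replicates 1 to 4. The groups overlapped, yet each cold library was below its same-numbered control library. The log2 fold change was -0.87 (SE 0.0572, adjusted p = 4.61e-09) with the block and -0.90 (SE 0.336, adjusted p = 0.642) without it, both by edgeR. The most abundant receptor, Itgb1, the integrin beta chain shared by collagen-binding integrins, had means of 458 ± 12.2 TPM and 466 ± 8.89 TPM (n = 4 each, SD). Ddr2 and Ddr1, the discoidin domain receptor kinases, had means of 53.6 ± 9.85 TPM and 50.5 ± 9.81 TPM in controls and of 54.8 ± 5.39 TPM and 46.7 ± 6.84 TPM in cold libraries.

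**Figure D5:**
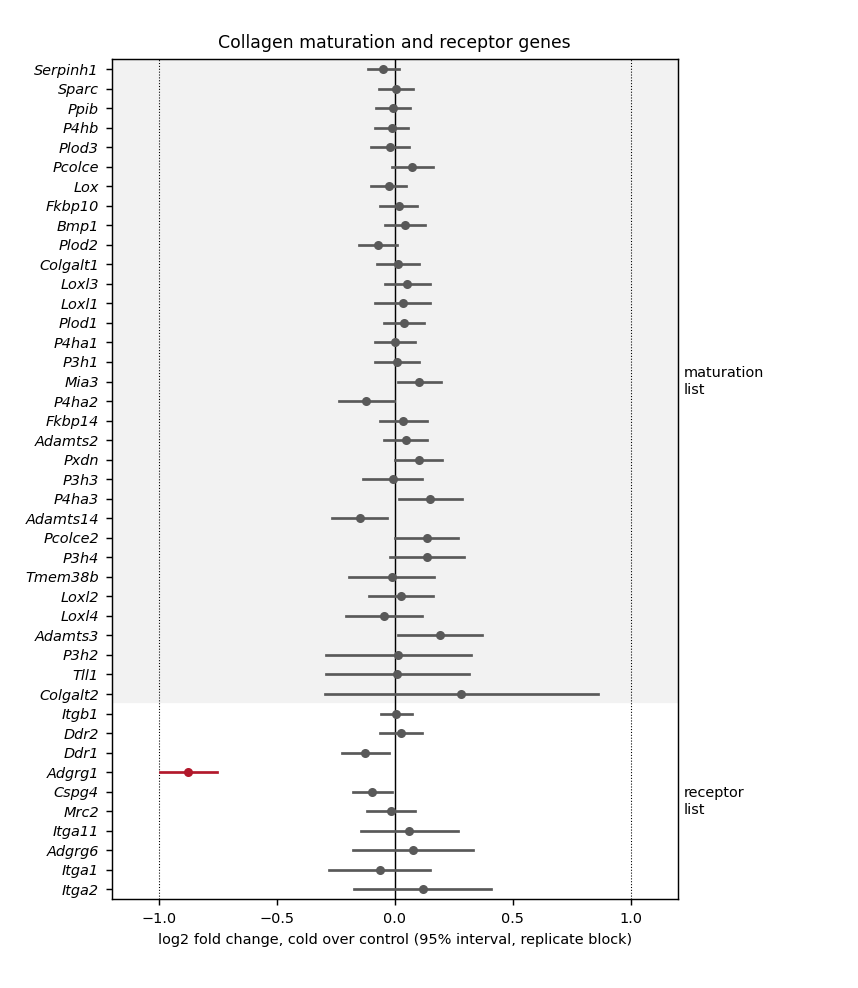
Log2 fold change of cold over control with 95% intervals (edgeR with the replicate block) for 33 maturation genes and 10 receptor genes, each list in order of mean TPM; dotted lines mark a 2-fold difference. Adgrg1 (log2 fold change -0.87) is the gene with an adjusted p under 0.05.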

How the data were processed

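RNA was sequenced as paired 150 bp reads from poly(A) RNA of 4 control and 4 cold libraries. The authors deposited 1 table of 31581 entries, of which 17590 hold values, with expected counts per gene (96.4% to 96.6% whole), TPM values scaled within each library to hundredths, and normalized counts that were not used. The submitters' processing notes name HISAT and HISAT2; the counter, genome build and strand setting are not given in the sources used here, so no coordinates are printed. Overlapping genes such as Col4a1 and Col4a2 may share reads, although all expected counts of collagen genes were whole.

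Cold was tested against control on these counts, rounded to whole numbers, by the quasi-likelihood F test of edgeR 4.0.16 (R 4.3.3; filterByExpr, TMM), without and with the replicate number as a block. Same-numbered libraries had correlations of deviations from the group means of 0.609, 0.618, 0.647 and 0.659 at numbers 1 to 4, where the highest correlation with a library of another number was 0.569, 0.591, 0.472 and 0.432, so the numbers were taken to pair the libraries. Single TPM values were compared by exact permutation over 70 arrangements. Alternatives were DESeq2 1.42.0, limma 3.58.1 on log2 TPM, other normalizations and filters, and leaving out libraries. Intervals cover 95%; counting intervals and the floor of 3 counts cover counting error only, since reads carry no molecular identifiers.

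The collagen family and the lists were chosen for study with earlier results of these data known, although the rule for members reads only gene symbols. Genes named are those past the thresholds, the transmembrane members and Col19a1, the 3 highest members and the extremes of log2 fold change in each class, the type IV pairs, and, of the maturation and receptor lists, the 3 highest and up to 3 called in the paired fit. Markers, variance parts and chain ratios were added as descriptions.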

Additional observations from a re-analysis of the deposited data

Results flagged for a closer look

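Dixon's criterion for an isolated value among 4 libraries was applied to 62 groups of collagen TPM values, and 2 groups passed, where chance gives about 1 in 20 groups, or 3.1. Cold replicate 4 was the highest of the cold libraries for Col13a1, at 1.04 TPM, with the other cold libraries at 0.40 to 0.47 TPM. Cold replicate 1 was the lowest for Col25a1, at 0.01 TPM, where the other 3 cold libraries were at 0.04 TPM, a gap of 1 count against 3 counts each.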

How the results depend on the processing

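Without the block, the count of collagen genes lower in the cold was 1. It was 2 with DESeq2 and 2 with the replicate block, 0 when a mean of 10 counts in each group was required, which removes Col25a1, and 0 with limma on log2 TPM at pseudocounts of 0.1, 1 and 0.01. Leaving out 1 library at a time gave 0 to 1. In the paired fit the count was 2, and it was 1 when a mean of 10 counts was required, 1 with limma on log2(TPM + 0.1) and the replicate block, and 1 with no replicate block. Counts of collagen genes higher in the cold were 0 in every alternative run. The log2 fold change of Col19a1 was -1.05 with limma at a pseudocount of 0.1 and -0.31 at 1, and that of Col25a1 -1.60 and -0.33. With 1 library left out, the median log2 fold change ran from -0.115 to -0.0050 for fibrillar, -0.102 to 0.073 for basement membrane, -0.289 to -0.041 for FACIT, -0.617 to 0.023 for transmembrane, -0.249 to 0.085 for other and -0.154 to 0.0091 for all collagen genes tested. The transmembrane median was -0.057 with a mean of 10 counts required and -0.087, -0.029 and -0.116 with limma at pseudocounts of 0.1, 1 and 0.01, and the FACIT median was -0.050 with no filter beyond 1 count. Of 525 single-gene values under alternatives, 10 lost a call, 2 gained one, 5 moved by more than their error and 0 reversed a call. For the maturation and receptor lists, whose alternatives were chosen after seeing the data, leaving out both libraries of replicate 4 in the paired fit gave 1 maturation gene lower (Adamts14, adjusted p = 0.0240) and 2 receptors lower (Ddr1, adjusted p = 0.0275, and Adgrg1), against 0 and 1 otherwise; 0 receptors were lower with no replicate block. Depth was not varied, and no library held more than 86 counts of any of the 22 genes under 1 TPM.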
